A study of Mus musculus with 4 samples.

Results

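The enzymes described here are those of the pentose phosphate pathway, G6pdx, Pgls, Pgd, Tkt, Taldo1, Rpia and Rpe, together with the NADPH-forming enzymes Me1, Idh1 and Idh2. They were taken by gene name from the probes for mouse transcripts on the array. All 10 genes were found, of 31093 gene names on the array, and they were covered by 12 of 39429 probes, with 3 probes for Me1 and 1 for each other gene. IMS32 cells, a single immortalized line of mouse Schwann cells, were kept for 1 h in DMEM with 5% FBS. The [Glc 5 mM/Pyr (+)] cells had 5 mM glucose and 1 mM pyruvate, and the [Glc 5 mM/Pyr (−)] cells had the same glucose without pyruvate. The [Glc 15 mM/Pyr (+)] cells had 15 mM glucose and 1 mM pyruvate, and the [Glc 15 mM/Pyr (−)] cells had 15 mM glucose without pyruvate. Each condition contributed 1 Cy3-labelled sample on 1 array, and the 4 arrays lay on the same slide.

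The pentose phosphate pathway branches from glycolysis at glucose 6-phosphate. Its oxidative branch forms NADPH and ribulose 5-phosphate, and its non-oxidative branch converts pentose phosphates to and from glycolytic intermediates. Malic enzyme and the NADP-dependent isocitrate dehydrogenases form NADPH as well, and cells, Schwann cells included, draw on it to regenerate reduced glutathione, to synthesize lipids and, by aldose reductase, to form sorbitol from glucose.

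No member differed by 2-fold between any of the conditions compared, with or without pyruvate at either glucose concentration, or between 15 and 5 mM glucose with or without pyruvate. The largest difference of a member was 0.21 on the log2 scale, a ratio of 1.15, for Idh1 without against with pyruvate at 15 mM glucose. All 12 probes were well above background on the 4 arrays, so each value was measured in each condition. Each condition has 1 array, so precision is limited by the number of arrays, and a replicate check exists for no difference.

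The level of a probe is given as log2 of its background-corrected intensity minus the 75th percentile of the probes on its array. The intensity at that percentile was 1597 to 1788, and 28473 to 30347 probes per array were well above background. All 13 Schwann cell marker genes, with S100b, Sox10 and Ngfr among them, had a probe well above background on the 4 arrays. So did 5 of 6 fibroblast markers, all but Lum, 4 of 4 macrophage markers found by name and 2 of 3 endothelial markers, while the endothelial marker Cdh5 was above background on none. The log2 of the summed intensity of a marker list before scaling, taking the brightest probe of each gene, was 16.3 to 16.6 for Schwann cell, 16.4 to 16.5 for fibroblast, 11.2 to 11.6 for macrophage and 12.0 to 12.5 for endothelial cell markers. The fibroblast sum came mostly from Col1a2, at 85784 to 91960, while Dcn was at 871 to 962 and Pdgfra at 15.4 to 19.9. The endothelial sum came mostly from Kdr, at 4089 to 5496, while Pecam1 was at 117 to 202. The macrophage sum was highest in [Glc 15 mM/Pyr (−)] by Cd68, with an intensity of 1817 there and 969 to 1258 elsewhere, while Aif1, at 259, and Ptprc, at 23.4, were lowest there. The part of these markers in the results was not tested.

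The probe sequences of 4 members are shown because each value below is the signal of 1 such stretch of transcript. Positions are those of the array files, in mm9, and whether a probe lies in 1 exon or across several was not analysed here. The stretches shown for Idh1 and Tkt run to the stop codon, in capitals, and the remaining probe bases are left out. The files give no position for the Pgls probe. The Me1 probe shown is the one farthest from the other 2.
Idh1 (chr1:65206035-65206094, minus strand, 56 of 60 bases): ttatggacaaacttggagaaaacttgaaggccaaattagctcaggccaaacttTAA
Tkt (chr14:31386641-31386700, plus strand, 58 of 60 bases): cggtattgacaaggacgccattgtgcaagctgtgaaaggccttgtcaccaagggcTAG
Pgls: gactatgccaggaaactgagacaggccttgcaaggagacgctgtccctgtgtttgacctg
Me1 (chr9:86480571-86480630, minus strand): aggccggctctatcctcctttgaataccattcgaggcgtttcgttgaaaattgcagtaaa

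In the oxidative branch, G6pdx encodes glucose 6-phosphate dehydrogenase, which commits glucose 6-phosphate to the pathway and forms the first NADPH. Its probe (chrX:71654949-71655008) gave log2 levels of 3.15 with and 3.16 without pyruvate at 5 mM glucose, and of 3.06 with and 3.22 without at 15 mM glucose, from intensities of 15892, 15511, 13354 and 15166. The pyruvate difference was 0.00 at 5 mM glucose, whereas at 15 mM glucose the level without pyruvate was 0.15 higher, a sign kept under each scaling tried. Against 5 mM glucose, the level at 15 mM was -0.09 with pyruvate, negative under each scaling, and 0.06 without pyruvate, a sign that quantile normalization, cyclic loess and spike-in scaling turned. Pgls encodes 6-phosphogluconolactonase, which opens the lactone that this enzyme forms. Its log2 levels were 0.90 and 0.89 at 5 mM glucose with and without pyruvate, and 0.98 and 1.08 at 15 mM. The array of [Glc 15 mM/Pyr (−)] was the highest, 0.19 above [Glc 5 mM/Pyr (−)], which was the largest glucose difference of any member but turned to -0.01 with spike-in scaling. Pgd encodes 6-phosphogluconate dehydrogenase, which forms the second NADPH and ribulose 5-phosphate. Its log2 levels (chr4:148524293-148524352) were 3.83 and 3.95 at 5 mM glucose with and without pyruvate, and 3.83 and 3.88 at 15 mM. The highest array was thus [Glc 5 mM/Pyr (−)], and the difference without pyruvate was 0.12 at 5 mM glucose, where spike-in scaling turned it to -0.06, and 0.06 at 15 mM glucose. The 3 enzymes of this branch did not share an order of the 4 arrays.

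The non-oxidative branch includes Rpia and Rpe, the isomerase and the epimerase that interconvert pentose phosphates. For Rpia (chr6:70716013-70716072) the log2 levels were -0.80 and -0.84 at 5 mM glucose with and without pyruvate, and -0.86 and -0.80 at 15 mM. All 4 lay within 0.062, the smallest range of the members measured by 1 probe. With spike-in scaling the pyruvate differences of Rpia were -0.23 at 5 mM and 0.03 at 15 mM glucose. Its glucose differences were then -0.41 with and -0.16 without pyruvate. For Rpe (chr1:66766021-66766080) the log2 levels were 0.93 and 0.93 at 5 mM glucose, and 0.98 and 1.03 at 15 mM. Without pyruvate, Rpe at 15 mM glucose was 0.10 above 5 mM, or -0.10 with spike-in scaling. Tkt encodes transketolase, the thiamine diphosphate-dependent enzyme that passes carbon back to glycolysis. The Tkt levels on the log2 scale were 5.13 with and 5.17 without pyruvate at 5 mM glucose, and 5.23 with and 5.16 without at 15 mM, from intensities of 62719, 62826, 59901 and 58450. Their range was 0.10. The pyruvate difference was 0.04 at 5 mM glucose, or -0.15 with spike-in scaling, and -0.07 at 15 mM glucose, negative under each scaling. Taldo1 encodes transaldolase, the partner of transketolase in this exchange. Its log2 levels (chr7:148588764-148588823) were 6.41 and 6.43 at 5 mM glucose with and without pyruvate, and 6.57 and 6.55 at 15 mM. Both arrays with 15 mM glucose were above both with 5 mM, by 0.16 with pyruvate and 0.12 without. Spike-in scaling turned these differences to -0.19 and -0.08. Cyclic loess gave 0.05 and -0.01, and quantile normalization gave 0.03 and 0.03. The pyruvate differences of Taldo1 were 0.02 and -0.02.

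Among the NADPH-forming enzymes outside the pathway, Idh1, the cytosolic and peroxisomal isocitrate dehydrogenase, had the widest range of all 10 genes, 0.35 on the log2 scale. Its log2 levels were -1.48 with and -1.29 without pyruvate at 5 mM glucose, and -1.34 with and -1.13 without at 15 mM, from intensities of 640, 712, 631 and 744. [Glc 5 mM/Pyr (+)] was the lowest array and [Glc 15 mM/Pyr (−)] the highest. The level was higher without pyruvate by 0.19 at 5 mM and by 0.21 at 15 mM glucose, the former 0.01 with spike-in scaling and both above 0 under each scaling. At 15 mM against 5 mM glucose it was 0.14 higher with pyruvate and 0.15 higher without, and spike-in scaling turned these to -0.21 and -0.04. Of the 10 genes, 2 were higher in all 4 comparisons, Idh1 and Rpe, whose smallest difference was 0.00, as were 14.8% of all probes well above background on the 4 arrays; with spike-in scaling neither was. The range of 0.35 lay at percentile 74.6 of probes of similar signal. Idh2, the mitochondrial isocitrate dehydrogenase that reduces NADP, had log2 levels (chr7:87239736-87239795) of 4.98 and 4.97 at 5 mM glucose with and without pyruvate, and of 5.08 and 5.09 at 15 mM. Its pyruvate differences were -0.01 and 0.01. Its glucose differences were 0.10 with pyruvate and 0.12 without, both just below 0 with quantile normalization and below 0 with spike-in scaling.

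Me1, the cytosolic malic enzyme that forms pyruvate and NADPH from malate, was measured by 3 probes. The first (chr9:86475077-86475136) gave log2 levels of 2.99 and 3.10 at 5 mM glucose with and without pyruvate, and of 3.14 and 3.06 at 15 mM. The second (chr9:86475215-86475274) gave 2.16, 2.22, 2.20 and 2.18 in the same order. The probe shown above gave 1.39, 1.46, 1.39 and 1.49. All 3 were higher without pyruvate at 5 mM glucose, by 0.06 to 0.12, and the mean of 0.08 became -0.11 with spike-in scaling. At 15 mM glucose they went apart, with -0.08, -0.02 and 0.10, and their mean was 0.00. The glucose differences of the first probe, 0.16 with pyruvate and -0.04 without, differed in sign, as did those of the second, 0.04 and -0.04, while the probe shown above gave 0.00 and 0.03.

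**Figure D1:**
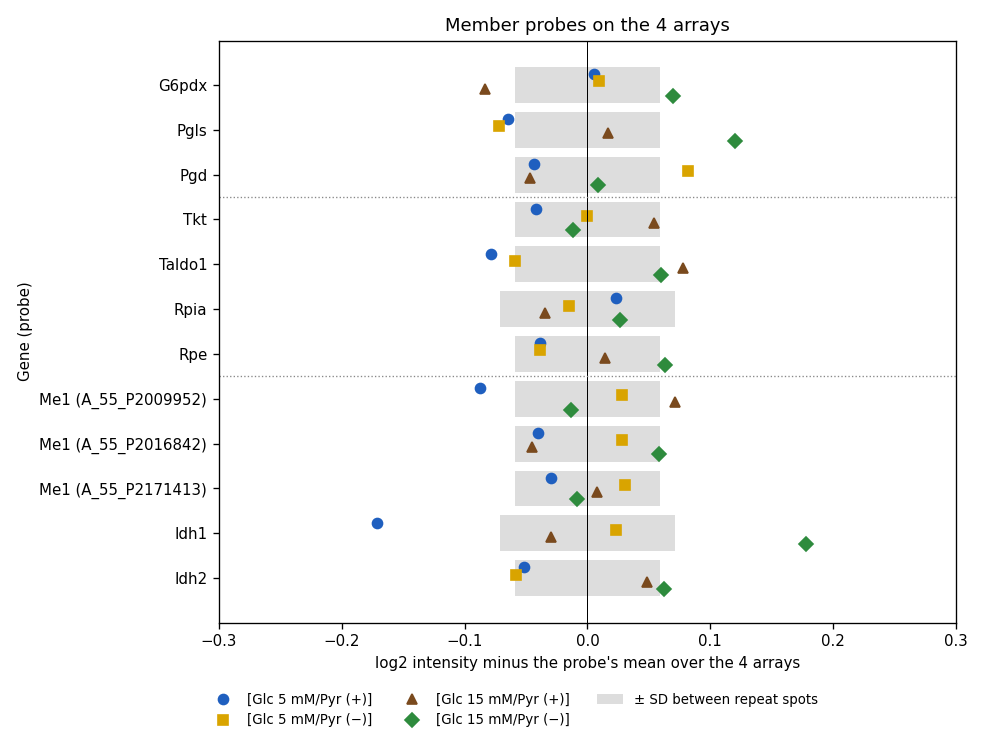
Levels of the 12 probes on the 4 arrays, as log2 intensity minus the mean of the probe over the arrays (horizontal axis), with 1 row per probe and 1 marker per condition. Grey bars are plus and minus the SD between repeat spots of probes of similar signal, and dotted lines separate the oxidative branch, the non-oxidative branch and the other NADPH-forming enzymes. Idh1 is spread most widely, over 0.35, with [Glc 5 mM/Pyr (+)] lowest and [Glc 15 mM/Pyr (−)] highest, while most other markers lie within or near the bars.

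The differences were set against the error within an array. The member probes were printed once each, but 282 other probes were printed repeatedly. From these, the SD of a difference between 2 arrays was 0.0838 for probes as bright as most members and 0.100 for probes as bright as Idh1 and Rpia. At 5 mM glucose, 3 of 12 member probes differed by more than this SD without pyruvate, those of Pgd, Idh1 and 1 of Me1, and 0 by more than 2 times. Of all probes, 36.7% and 10.6% did so by the SD of their own signal group. At 15 mM glucose, 5 did, those of G6pdx, Pgls, Idh1 and 2 of Me1, of which Idh1 exceeded 2 times the SD, and of all probes 54.2% and 25.4%. Between 15 and 5 mM glucose, 6 probes exceeded the SD with pyruvate (G6pdx, Tkt, Taldo1, Idh1, Idh2 and 1 of Me1) and 0 exceeded 2 times, against 45.1% and 14.9% of all probes. Without pyruvate 5 exceeded it (Pgls, Rpe, Taldo1, Idh1 and Idh2), and Pgls exceeded 2 times, against 58.6% and 30.9%. With quantile normalization, Tkt, Taldo1 and Idh2 in the presence of pyruvate were 0.007, 0.026 and -0.004, all within the SD. Cyclic loess gave 0.011, 0.048 and 0.018. In its absence Rpe, Taldo1 and Idh2 also fell within the SD under both. G6pdx with pyruvate, Pgls without pyruvate and Idh1 in both cases stayed beyond the SD. Shares near or under those of all probes set the members apart in no comparison. The error estimate of the scanner software was wider, 0.204 for the difference of each member, and of the members only the pyruvate difference of Idh1 at 15 mM glucose exceeded it. Neither error contains the variation between cultures.

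Counts of members past a fold threshold were set beside the share of all probes. Without pyruvate at 5 mM glucose, 0 of 10 members reached 2-fold, as did 2.67% of all probes, and 0 reached 1.5-fold, as did 5.4%. At 15 mM glucose the members again gave 0 and 0, and all probes 4.17% and 9.71%. Between 15 and 5 mM glucose with pyruvate the members gave 0 and 0, and all probes 2.5% and 5.3%. Without pyruvate they gave 0 and 0, and all probes 4.37% and 10.4%. With 10 members, counts of 0 lie near these shares and do not set the members apart. The members lay in the 2 brighter of 3 signal groups of probes, in which differences scattered less. For pyruvate at 5 mM glucose, the SD over probes was 0.341 in the dimmest group, 0.146 in the middle one and 0.0950 in the brightest. Within its signal group, each of the 12 probes lay inside the central 95% of probes in each of the 4 comparisons. The highest position by size was that of Pgd at 5 mM glucose, at percentile 84.9.

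**Figure D2:**
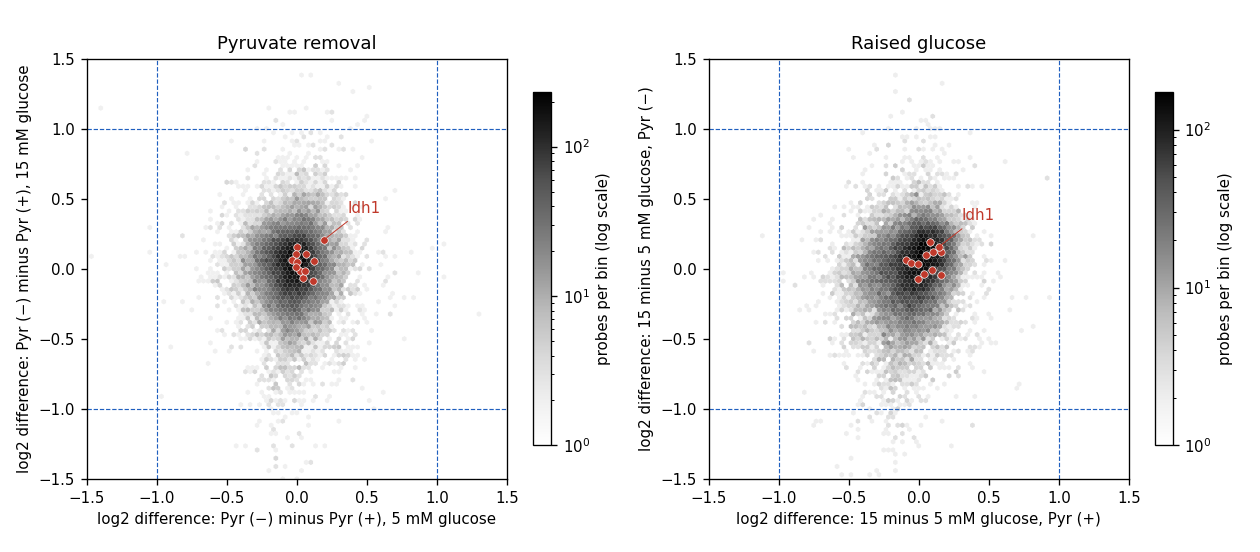
Log2 differences of the 12 member probes (red) and of 27590 probes well above background on the 4 arrays (grey, shaded by the number of probes per bin on a log scale). The left panel sets pyruvate removal at 5 mM glucose (horizontal) against 15 mM glucose (vertical), and the right panel sets 15 minus 5 mM glucose with pyruvate (horizontal) against without (vertical); dashed lines mark 2-fold, and 188 and 217 probes lie beyond the axes. The red points lie in the dense centre of both panels, with Idh1 at 0.19 and 0.21 on the left.

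The 10 genes had a median log2 difference for pyruvate removal of 0.01 at 5 mM glucose, where the median of all probes was -0.02. At 15 mM glucose the medians were 0.05 for the genes and 0.03 for all probes. Between 15 and 5 mM glucose it was 0.07 with pyruvate, against -0.02 for all probes, and 0.08 without, against 0.03. In the brightest signal group, which held the probes of all members but Idh1 and Rpia, the medians of probes were 0.00 and 0.03 for pyruvate at 5 and 15 mM glucose, and 0.04 and 0.08 for glucose with and without it, so for glucose without pyruvate the members did not stand apart. Without pyruvate 7 of 10 genes were higher at 5 mM glucose, as were 44.5% of all probes, and 8 of 10 at 15 mM glucose, as were 55.9%. At 15 mM against 5 mM glucose 7 of 10 were higher with pyruvate, as were 45.8% of probes, and 7 of 10 without, as were 55.8%. In both pyruvate comparisons 5 of 10 genes were higher, as were 25.5% of all probes, and 0 of 10 were lower, as were 25.2%, counts that changed with the scaling. Of the genes higher in both, G6pdx and Rpe at 5 mM and Me1 at 15 mM glucose counted only by differences of 0.00. With spike-in scaling 1 of 10, Idh1, was higher in both and 4 were lower in both (Tkt, Taldo1, Me1 and Idh2). With quantile normalization 2 were lower in both (Taldo1 and Idh2) and with cyclic loess 1 (Idh2). The 2 pyruvate comparisons share no array with each other, but each shares arrays with both glucose comparisons, so the 4 sets of values are not independent. The pathway proper, without Me1, Idh1 and Idh2, had medians of 0.00 and 0.06 for pyruvate and 0.05 and 0.06 for glucose.

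These directions depended on the scaling of the arrays. When arrays were scaled to the spike-in control probes, the values of all probes moved by -0.19 at 5 mM and -0.04 at 15 mM glucose for pyruvate. The glucose comparisons moved by -0.35 in its presence and -0.20 in its absence. The genes higher were then 1, 6, 0 and 0 of 10 in the same order. Above the median of all probes lay 9, 6, 8 and 7 of 10 genes, counts that a common shift cannot alter. They were 7, 6, 6 and 5 with quantile normalization, 7, 6, 7 and 5 with cyclic loess and 5, 9, 5 and 7 with normexp. The counts also depend on the probes compared. Among the 9 were Pgls, Idh2 and Rpe, with -0.007, -0.006 and 0.0005, which lay under the brightest-group median of 0.0007. No member reached 1.5-fold under any scaling, background correction, filter or choice of probe tried.

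**Figure D3:**
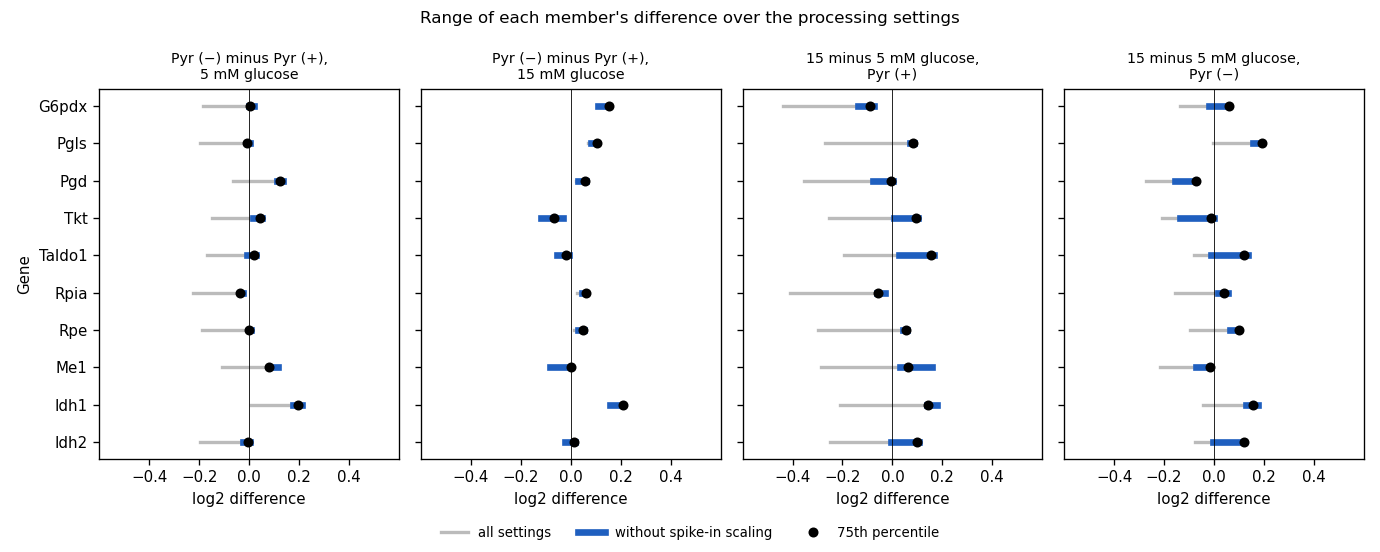
Log2 difference of each gene (rows) in the 4 comparisons (panels) with the 75th percentile scaling (black points), the range over the settings without spike-in scaling (blue bars) and over all settings (grey lines). Idh1 stays above 0 in both pyruvate panels, with a lowest value of 0.01 at 5 mM glucose, and the grey lines of the third panel reach -0.44 for G6pdx.

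The only tests that the layout allows are limma fits across all probes, each with 1 residual degree of freedom. In the additive fit with limma, 0 of 31278 probes passed an adjusted p of 0.05 for pyruvate or for glucose, and 3.45% and 4.79% had an unadjusted p under 0.05. For the crossed term, the dependence of the pyruvate difference on glucose, limma also called 0 probes, with 3.24% under 0.05 unadjusted. The additive fit counts any dependence of the pyruvate difference on glucose as error. The crossed fit holds no pyruvate term, so it counts a pyruvate difference common to the glucose concentrations as error. Of the 12 member probes, 0 had an unadjusted p under 0.05 for any of the 3 terms. Idh1 had the lowest limma p for pyruvate, 0.12 (adjusted p = 0.99), with a difference of 0.20 and an SE of 0.09, and also for glucose, 0.21 (adjusted p = 0.77), with a difference of 0.15 and an SE of 0.09. For the crossed term it was the first Me1 probe, whose pyruvate difference was 0.20 lower at 15 mM than at 5 mM glucose, with a limma p of 0.34 (adjusted p = 0.96). With so few degrees of freedom, a p that misses the threshold does not show that the levels were alike.

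Other genes around the pathway were grouped in 4 lists with 38 genes and 51 probes, of which 36 genes were measured. As means over their probes, 0 of these genes reached 1.5-fold in any comparison, and 0 of 47 probes tested passed an adjusted p of 0.05 in limma for pyruvate, glucose or the crossed term. For glucose 2 probes had an unadjusted p under 0.05, 1 of Nnt and 1 of Slc19a3, a gene named after its values were seen. The Slc19a3 probe was well above background on 1 of 4 arrays and this Nnt probe on 2, so both p-values rest on values near background. Spike-in scaling moves each value below by the amounts given above, so that it turns each positive difference named here between 15 and 5 mM glucose with pyruvate. It also turns the positive medians below for glucose without pyruvate, the Cbr1 difference, both positive differences of the bright Nnt probe and both pyruvate medians of the NADPH-using enzymes.

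The side and neighbouring enzymes of the pathway had 10 of 11 genes measured, all but Tktl2. For pyruvate their medians were -0.03 at 5 mM and 0.11 at 15 mM glucose. The glucose medians were -0.06 in the presence and 0.12 in the absence of pyruvate. G6pd2 encodes a second glucose 6-phosphate dehydrogenase and is a copy of G6pdx, so that its probe may also detect G6pdx transcripts, which was not tested. Its intensities were 191 and 163 at 5 mM glucose with and without pyruvate, and 172 and 217 at 15 mM, and its largest differences, 0.30 between both arrays with 15 mM glucose and 0.50 between both arrays without pyruvate, both highest in [Glc 15 mM/Pyr (−)], were the largest of the list in those comparisons. Tktl1, a transketolase-like gene, was dim, with 39.8 and 26.9 at 5 mM glucose and 31.0 and 34.3 at 15 mM. It had the largest value at 5 mM glucose, -0.53 for pyruvate, and for glucose with pyruvate, -0.20.

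The other enzymes that form NADPH or NADP had 10 of 10 genes measured, with medians of -0.04 and -0.03 for pyruvate and 0.00 and 0.01 for glucose. Aldh1l2, the mitochondrial formyltetrahydrofolate dehydrogenase, had intensities of 4841 and 3866 at 5 mM glucose with and without pyruvate, and of 3641 and 3486 at 15 mM. [Glc 5 mM/Pyr (+)] was the highest array, and the difference was -0.29 against it without pyruvate and -0.25 against it at 15 mM glucose. Nnt, the mitochondrial transhydrogenase, had the largest values at 15 mM glucose for pyruvate, -0.30, and without pyruvate for glucose, -0.33. Its probes disagreed. The bright Nnt probe, with 5961 to 6762, differed by 0.03 between the arrays with 15 mM glucose and by 0.05 between those without pyruvate, while a dim one, with 29.7 to 51.7, differed by -0.63 and -0.71. The third Nnt probe, that with the low p for glucose, had intensities of 15.7 and 18.1 at 5 mM glucose with and without pyruvate, and of 8.07 and 7.50 at 15 mM, where it was not well above background.

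All 12 of the NADPH-using enzymes were measured, and each comparison had 8 of 12 higher, though not always the same ones, beside 44.5% to 55.9% of all probes. With spike-in scaling the counts were 1 and 5 for pyruvate at 5 and 15 mM glucose, and 0 and 0 for glucose. The medians were 0.06 and 0.03 for pyruvate and 0.04 and 0.03 for glucose. Blvrb, which reduces biliverdin, had the largest pyruvate difference with 5 mM glucose, 0.20. With 15 mM it was Nox4, an NADPH oxidase that makes hydrogen peroxide, with -0.22 as the mean of 3 probes. The dimmest Nox4 probe, with intensities of 114 to 161, gave -0.44, and the brighter ones gave -0.12 and -0.10. Por had -0.21 in that comparison. For glucose the largest values were 0.26 with pyruvate for Por, the electron donor of cytochrome P450, and 0.17 without pyruvate for the carbonyl reductase Cbr1. Por was highest in [Glc 15 mM/Pyr (+)], with an intensity of 20593, against 19187 and 19939 at 5 mM glucose with and without pyruvate and 18165 in [Glc 15 mM/Pyr (−)].

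Thiamine diphosphate is the cofactor of transketolase, and 4 of 5 genes of thiamine uptake and activation were measured, all but Slc19a3. Their medians were 0.00 at 5 mM and 0.12 at 15 mM glucose for pyruvate, and -0.08 in the presence and 0.08 in the absence of pyruvate for glucose. Thtpa, the thiamine triphosphatase, had intensities of 1708 and 1658 at 5 mM glucose with and without pyruvate, and of 1450 and 1706 at 15 mM. The lowest array was [Glc 15 mM/Pyr (+)], and the pyruvate difference at 15 mM glucose, 0.20, was the largest of the list in that comparison.

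**Figure D4:**
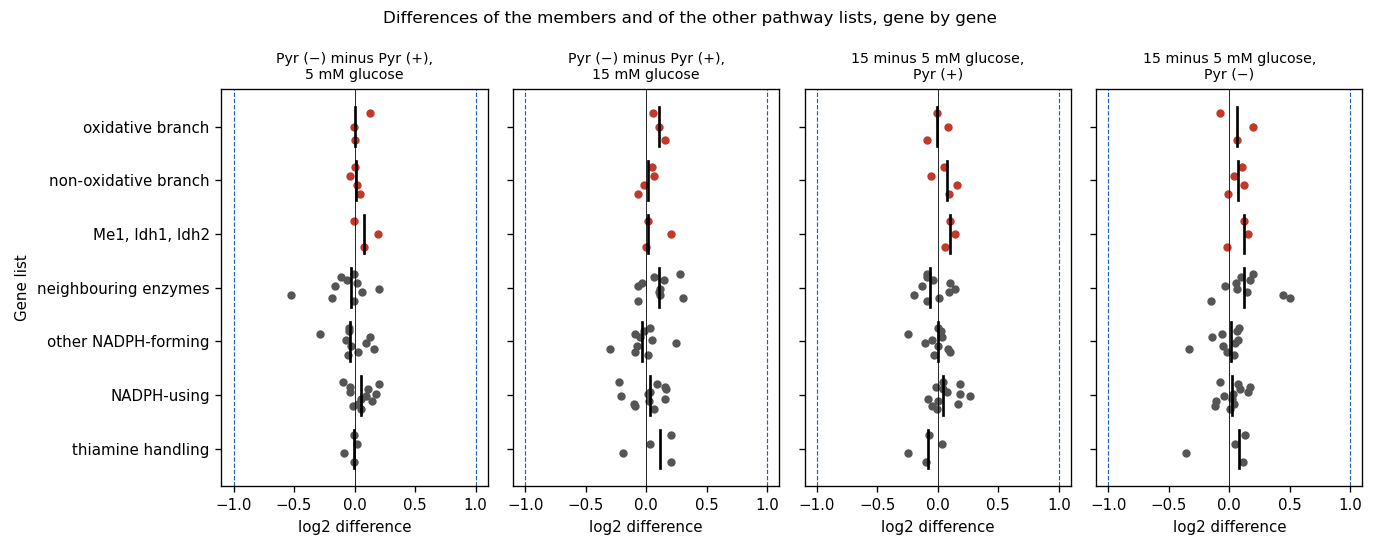
Log2 difference of each measured gene (dots) by list (rows) in the 4 comparisons (panels), with members in red, the other lists in grey and the median of each list as a black bar. No gene reaches the dashed lines at 2-fold, and the widest grey values are those of Tktl1 at -0.53 in the first panel and G6pd2 at 0.50 in the last.

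Idh1 was compared with the other genes by shape, as the root mean square distance between levels centred on the mean over the 4 arrays. Of 20316 genes with probes well above background on the 4 arrays, Rnaseh2b was nearest, with a distance of 0.0014, and Efhd1 followed with 0.0057. The third nearest was named in the files only by a transcript identifier. Rnaseh2b, a subunit of ribonuclease H2, had log2 levels of 0.47 and 0.66 at 5 mM glucose with and without pyruvate, and of 0.61 and 0.82 at 15 mM. With 4 arrays many shapes of this kind lie close together, and the likeness is a description.

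NRF2 is known to drive G6pdx, Pgd, Tkt, Taldo1 and Me1 in other cells, so the core of its binding motif, TGACNNNGC, was searched on both strands of the RefSeq promoter windows of GRCm38.p6, from 250 bases before to 50 after each start. Of 13 windows of the 10 genes, 3 held it, 1 each of Pgd, Me1 and G6pdx, as did 12.4% of 32851 windows. The E-box CACGTG, a motif bound by MYC, was in 0 of 13 windows, as it was in 7.15% of all. The windows of Me1, at the start, and of G6pdx, before it, are shown because both genes head an NADPH-forming route, with the match in capitals, on the opposite strand for G6pdx.
Me1 promoter (chr9:86695886-86695945, minus strand): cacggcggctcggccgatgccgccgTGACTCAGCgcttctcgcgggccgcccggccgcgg
G6pdx promoter (chrX:74428903-74428962, minus strand): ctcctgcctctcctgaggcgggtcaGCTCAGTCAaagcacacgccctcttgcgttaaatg
Beside these matches, the pyruvate differences at 5 and 15 mM glucose were 0.08 and 0.00 for Me1, 0.00 and 0.15 for G6pdx and 0.12 and 0.06 for Pgd. With spike-in scaling the values at 5 mM glucose were -0.11, -0.18 and -0.06 in the same order. Of the members without a match, Idh1 had 0.19 and 0.21, Tkt 0.04 and -0.07 and Taldo1 0.02 and -0.02. Pgls had -0.01 and 0.10, Rpia -0.04 and 0.06, Rpe 0.00 and 0.05 and Idh2 -0.01 and 0.01. A link between the motif and these values was not tested.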

How the data were processed

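The authors extracted total RNA, hybridized 1 Cy3-labelled sample per condition to an Agilent whole mouse genome array and scanned it. The deposited scanner output of Feature Extraction 11.5.1.1 holds the background-corrected intensity of each spot, not scaled between arrays. A second table deposited by the authors holds a ratio, this intensity divided by 1 constant per array (1719 to 1930). The settings of GeneSpring GX are not given in the sources used here.

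Control and outlier spots were left out, spots of 1 probe were averaged, and log2 of the intensity minus the 75th percentile of each array was calculated here from the deposited values. A comparison used probes well above background on at least 1 of its arrays, and a gene is the mean of its measured probes. The threshold was 2-fold. limma 3.58.1 under R 4.3.3 fitted pyruvate and glucose, or glucose and the crossed term, with Benjamini-Hochberg adjustment at 0.05 over 31278 probes. Other steps ran in Python 3.11.15 (numpy 2.4.6, matplotlib 3.10.9 and pandas 2.3.3), and calculations were tested on simulated data. Motifs were searched in RefSeq promoters, with 10 of 10 members matched by symbol.

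The members and lists were chosen with earlier results of these data known. Besides the members, the text names from each other list the genes past 2-fold and the gene with the largest difference in each comparison, and the 3 genes nearest in shape to the member of the widest range. Counts and medians include a few genes whose own values are not reported here. As alternatives, arrays were scaled by the percentile of the probes that passed background everywhere, by quantile normalization, by cyclic loess or by 8 of 10 spike-in probes. Others were normexp (offset 50), the ratio that the authors deposited, a stricter and an absent filter on dimness, only the brightest of several probes, a threshold of 1.5-fold and limma with an intensity trend.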

Additional observations from a re-analysis of the deposited data

How the results depend on the processing

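Under 11 alternatives, 434 of 496 values kept within their spread (counts within 1.5 times), and 62 moved by more. Of 360 differences of members, 43 moved, 30 of them with spike-in scaling, and 45 changed sign, 23 of them under other settings, from values of at most 0.12. No member passed the threshold in the 10 alternatives that recalculated the differences, and limma called 0 probes in the 8 for which it was run. Spike-in scaling moved the median of the members to -0.18 for pyruvate removal with 5 mM glucose, and between glucose concentrations to -0.28 in the presence and -0.12 in the absence of pyruvate, through the shift of all probes given above. The number of all probes past 2-fold was 822 and 1236 for pyruvate at 5 and 15 mM glucose, and 766 and 1320 for glucose with and without pyruvate. In the same order it was 42, 131, 40 and 154 with normexp, whose offset shrinks differences of dim probes, 231, 542, 216 and 597 for probes well above background on all arrays, and 1652, 2546, 1624 and 2757 without a filter. At 1.5-fold it was 1660, 2875, 1622 and 3145. The split into higher and lower probes, 405 and 417, 653 and 583, 337 and 429, and 585 and 735, became 326 and 551, 622 and 622, 241 and 868, and 439 and 1092 with spike-in scaling. For glucose with pyruvate it was 405 and 342 with quantile normalization and 31 and 9 with normexp. No paired analysis was possible because each condition has 1 array, and for the same reason no array could be left out. Differences of the size of the members' lie near the error within an array, and the variation between cultures was not measured.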
